A study of Mus musculus with 8 samples.

Results

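The 38 genes described here encode the enzymes and transporters of glycolysis (21 genes) and other known targets of the hypoxia response (17 genes). They were chosen by name, with earlier results of these data known, out of 22056 genes in the deposited tables. All 38 were found and passed the filter on low counts. They were followed in tumour cells grown from N2N1G cells, a cultured mouse line of small cell lung cancer, which is an aggressive neuroendocrine tumour. The grafts are allografts in mice. All groups received the same line at 1000000 cells per graft and were collected after 3 weeks of growth. The 2 brain grafts and the 3 grafts in the flank subcutis were set by direct injection, and the 3 liver grafts were seeded through the tail vein. For liver, the site and the route of entry therefore cannot be told apart. Tumours were dissociated, living cells were sorted, and each of the 8 grafts gave 1 droplet 3′ RNA library in which molecules are counted by unique molecular identifiers (UMIs). The labels do not say whether the grafts of a site came from separate animals, so p-values measure only the spread between these libraries.

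Tumour cells were defined as cells in which eGFP and Mycl together took at least 0.2% of the UMIs, which gave 34719 of 36797 cells that passed quality filters (38460 deposited). Each library held 2418 to 6276 tumour cells with 21689091 to 62047017 UMIs in sum. Neuroendocrine markers of this tumour type were present in every library, Chga at 383 to 669 counts per 1000000 UMIs (CPM) and Calca at 52.6 to 147 CPM. Pairs of libraries shared cell barcodes for at most 1.05% of the tumour cells of the smaller library. The tumour cells of brain replicate 1 stood apart. In all, 12 markers of macrophages and microglia summed to 554 and 84.8 CPM in the brain libraries against 6.86, 16.2 and 6.6 CPM in liver and 46.2, 2.27 and 2.41 CPM in the subcutaneous libraries. Markers of astrocytes and oligodendrocytes summed to 241 and 168 CPM in brain and to 38.9 to 48.3 CPM elsewhere, and erythroid markers to 852 CPM in liver replicate 2 and at most 11.3 CPM elsewhere. Macrophage and glial markers were thus highest in the brain libraries. For 6 members (Hk2, Pfkfb3, Pfkfb4, P4ha1, Car9 and Bhlhe40), the cells outside the tumour rule were more than 3-fold above the tumour cells in both brain libraries, and their values are given beside the results.

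Glycolysis breaks glucose down to pyruvate, and cells that lack oxygen turn the pyruvate into lactate and export it. In oxygen, prolyl hydroxylases mark the hypoxia-inducible factors (HIFs) for degradation. When oxygen is short, HIF-1 binds short DNA elements next to genes of glucose uptake, glycolysis, mitochondrial removal, matrix synthesis and pH control, and raises their transcription, which makes these genes a common readout of oxygen supply in tumours.

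The core of the HIF binding element is ACGTG or GCGTG, read on either strand (CACGT or CACGC on the other). Promoter windows from RefSeq (GRCm38.p6, 250 bases before to 50 bases after the transcript start) were on hand for 34 members, and not for Slc2a3, Bnip3l, Ndrg1 and Bhlhe40. At least 1 such core was present for 31 of the 34 members (91.2%), against 12628 of 27025 genes in the whole table (46.7%). Counted by single windows, it was in 38 of 48 member windows (79.2%) and in 14380 of 32851 windows overall (43.8%). These shares were not adjusted for base composition, and a match is only a match of letters. Among members that were lower in liver than in subcutaneous tumour cells (below), 17 of 17 held a core, and among the rest 14 of 17 (82.4%). Gpi1, Tpi1 and Eno2 had none in the window. The stretches that hold the cores are shown for the 5 members with the largest difference between liver and subcutaneous tumour cells that have a single promoter entry. They run 5′ to 3′ on the strand of the gene, end before the transcript start, and have the cores in capitals:

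Hk2 promoter, chr6:82774482-82774700, reverse strand: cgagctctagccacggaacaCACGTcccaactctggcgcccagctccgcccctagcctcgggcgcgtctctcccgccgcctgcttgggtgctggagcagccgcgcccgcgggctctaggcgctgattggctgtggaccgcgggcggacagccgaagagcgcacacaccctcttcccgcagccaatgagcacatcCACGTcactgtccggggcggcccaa

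P4ha2 promoter, chr11:54100797-54100879, forward strand: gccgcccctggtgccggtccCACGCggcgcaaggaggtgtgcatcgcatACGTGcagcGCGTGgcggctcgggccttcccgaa

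Car9 promoter, chr4:43506988-43507025, forward strand: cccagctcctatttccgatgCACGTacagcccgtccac

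Ero1l promoter, chr14:45318611-45318720, reverse strand: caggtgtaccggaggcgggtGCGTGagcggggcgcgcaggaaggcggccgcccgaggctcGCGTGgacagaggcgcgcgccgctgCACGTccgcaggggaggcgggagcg

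P4ha1 promoter, chr10:59323113-59323295, forward strand: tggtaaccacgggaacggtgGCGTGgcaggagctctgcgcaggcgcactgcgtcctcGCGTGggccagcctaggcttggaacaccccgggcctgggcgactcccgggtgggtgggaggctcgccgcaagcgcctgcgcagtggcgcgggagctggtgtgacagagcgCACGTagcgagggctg

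P4ha2, Ero1l and P4ha1 each held 3 cores in this stretch, Hk2 held 2, and Car9 held 1, placed just before the transcript start. The genes themselves are, on the same build (GRCm38, mm10), Hk2 (ENSMUSG00000000628, chr6:82725025-82774454), P4ha2 (ENSMUSG00000018906, chr11:54100095-54131665), Car9 (ENSMUSG00000028463, chr4:43506966-43513729), Ero1l (ENSMUSG00000021831, chr14:45283087-45318771) and P4ha1 (ENSMUSG00000019916, chr10:59323296-59373304). For P4ha2, Car9 and Ero1l, the annotated gene begins before the RefSeq start, so that the printed stretch lies inside the annotated gene. All 5 are protein-coding, and their values are given with their roles below.

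Expression was compared on UMI counts summed over the tumour cells of each library. Levels are in CPM, listed in the order of the replicates, and are compared between sites for the same gene only, since 3′ counts do not rank genes against each other. A log2 fold change is the first site named over the second, with its standard error (SE), and a gene was called at an adjusted p (edgeR quasi-likelihood test, Benjamini-Hochberg over all 13931 genes tested) under 0.05. Subcutaneous tumour cells had the highest levels of most members. Against them, 31 of 38 members were lower in brain and 2 were higher, and 20 were lower in liver and 0 higher. Over all genes tested, 6.13% were called lower and 8.94% higher in brain than in subcutaneous tumour cells (15.1% in either direction), and 1.9% lower and 0.933% higher in liver than in subcutaneous tumour cells (2.83%). Between brain and liver, 17 members were lower and 6 higher in brain, where 8.56% of all genes were called lower and 13.2% higher (21.8%). The median log2 fold change over the 38 members was -0.46 between brain and liver, -1.10 between brain and subcutaneous and -0.65 between liver and subcutaneous. The median over all genes lay within 0.01 of 0 in each comparison. The comparisons share libraries and are not independent of each other.

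**Figure D1:**
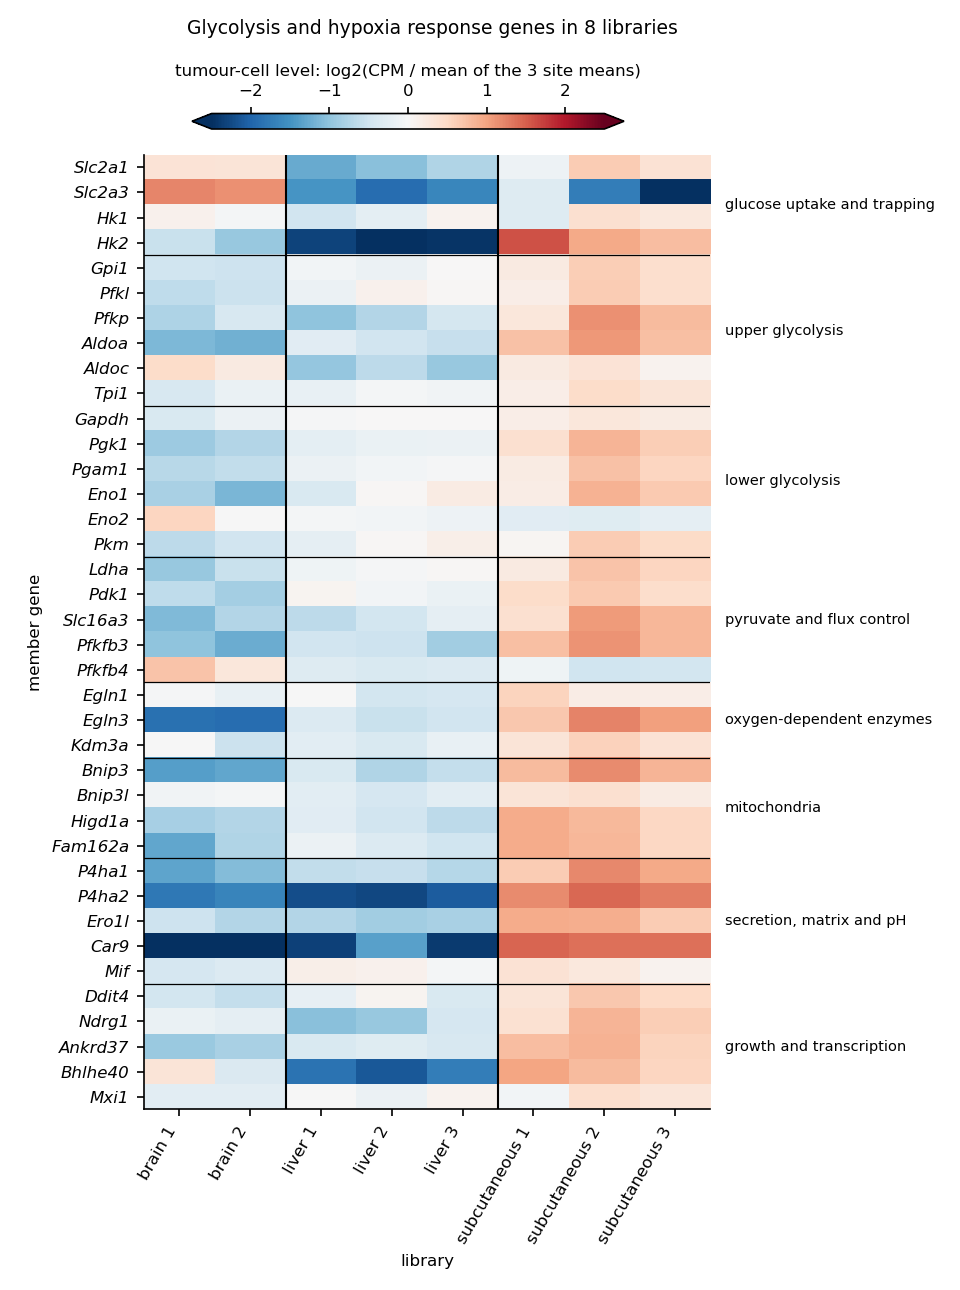
Levels of the 38 members (rows, grouped by role) in the tumour cells of the 8 libraries (columns), as log2 of CPM over the mean of the 3 site means; red is above and blue below that mean. The subcutaneous columns are red for 28 members whose 3 subcutaneous libraries exceed all 5 others, while Slc2a3, Eno2 and Pfkfb4 are highest in the brain columns. The CPM are not scaled by the library factors.

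The order of the sites differed among members. In 18 of 38, both brain libraries lay below all liver libraries and all liver libraries below all subcutaneous ones, an order held by 1.64% of all genes tested. These 18 were Gpi1, Pfkl, Aldoa, Gapdh, Pgk1, Pgam1, Ldha, Pdk1, Slc16a3, Pfkfb3, Bnip3, Ankrd37, Egln3, P4ha1, Car9, Ddit4, Higd1a and Fam162a. In 7 members (Slc2a1, Hk2, Aldoc, Bnip3l, Ndrg1, P4ha2 and Bhlhe40), the liver libraries were instead below all 5 others, as in 12.4% of all genes. The CPM are not scaled by the library factors (TMM) that the fold changes use, 0.937 to 0.977 in liver and 1.02 to 1.04 elsewhere. Liver levels are therefore somewhat low beside the other sites, and the liver count is not read as a result about the members. The other orders given here use the same CPM. With the factors, Pfkl in liver replicate 2 would lie above subcutaneous replicate 1. In 28 members the 3 subcutaneous libraries were above all 5 others, as in 8.14% of all genes.

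Of the 4 members of glucose uptake and trapping, 3 were higher in brain than in liver and 2 were lower in liver than in subcutaneous tumour cells. Slc2a1, the main glucose transporter of most cells (GLUT1), stood at 63.3 and 61.8 CPM in brain, 20.8, 24 and 29.5 CPM in liver and 45.3, 76.9 and 63.5 CPM in subcutaneous tumour cells. Liver was low, and brain and subcutaneous libraries overlapped. The gene was 2.34-fold higher in brain than in liver (log2 fold change 1.23, SE 0.21, adjusted p = 0.00479). It was 2.32-fold higher in subcutaneous than in liver tumour cells (log2 fold change -1.22, SE 0.19, adjusted p = 0.0189). Brain against subcutaneous gave a log2 fold change of 0.01 (adjusted p = 0.979). Hk2, the inducible hexokinase that traps glucose in the cell, stood at 2.4 and 1.83 CPM in brain, 0.709, 0.627 and 0.648 CPM in liver and 10.6, 6.83 and 6.05 CPM in subcutaneous tumour cells. Here the 3 sites did not overlap: liver was lowest, brain in between and subcutaneous highest. The difference between liver and subcutaneous tumour cells was 10.9-fold (log2 fold change -3.44, SE 0.26, adjusted p = 0.000523), the largest in size among the 38 members in that comparison. Brain was 2.92-fold above liver (log2 fold change 1.55, SE 0.28, adjusted p = 0.0068) and 3.73-fold below subcutaneous (log2 fold change -1.90, SE 0.28, adjusted p = 0.00482). The liver values rest on 30 to 35 UMIs per library. With all kept cells in place of tumour cells, the liver against subcutaneous value was -3.24 and no longer called (adjusted p = 0.0735). Hk1, the constitutive hexokinase, ranged from 18.1 to 33.3 CPM over the 8 libraries and passed no test (adjusted p = 0.741, 0.738 and 0.569, given in the order brain to liver, brain to subcutaneous, liver to subcutaneous here and below).

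Slc2a3, the high-affinity glucose transporter best known from neurons (GLUT3), was the member with the largest excess in brain. It stood at 4.2 and 4.0 CPM in brain, 0.648, 0.481 and 0.583 CPM in liver and 1.44, 0.548 and 0.27 CPM in subcutaneous tumour cells. Both brain libraries were above all others, 6.61-fold over liver (log2 fold change 2.72, SE 0.54, adjusted p = 0.00933). They were 5.51-fold over subcutaneous tumour cells (log2 fold change 2.46, SE 0.54, adjusted p = 0.0192). Its call against liver was lost without brain replicate 1 (adjusted p = 0.0515), and that against subcutaneous without brain replicate 1 or 2 or subcutaneous replicate 2 (adjusted p 0.0639 to 0.0938) or in a fit of those sites alone (adjusted p = 0.076). The Slc2a1 call for liver against subcutaneous was lost without liver replicate 1 or 2 or subcutaneous replicate 2 or 3 (adjusted p 0.0526 to 0.129). Host cells of the brain libraries also held these transcripts. In cells outside the tumour rule, Hk2 stood at 117 and 96.7 CPM in the brain libraries, Slc2a1 at 144 and 105 CPM and Slc2a3 at 3.62 and 5.49 CPM. Hk2 was thus far above its level in the brain tumour cells, Slc2a1 was above it by less, and Slc2a3 was near it. Tumour cells with 2 or more macrophage UMIs (1258 of 2418 in brain replicate 1 and 206 of 4060 in brain replicate 2) were then left out. The log2 fold change of brain against liver was 1.34 for Slc2a1, 2.77 for Slc2a3 and 1.22 for Hk2. All 3 were still called (adjusted p = 0.00342, 0.00717 and 0.0184). The part of glial RNA in them was not tested.

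**Figure D2:**
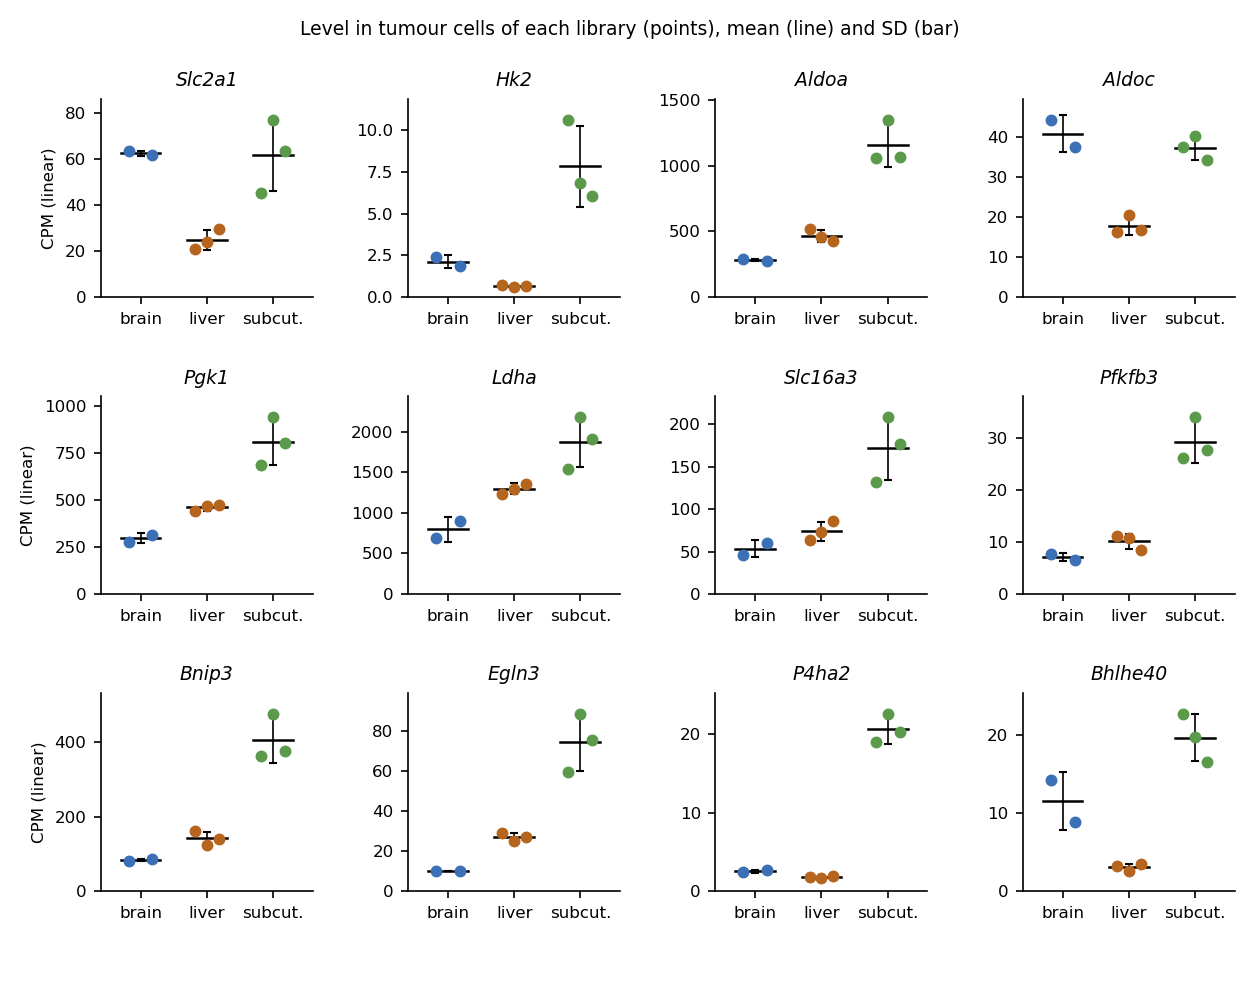
Levels (CPM, linear axes from 0) of 12 members in the tumour cells of each library (points), with the mean (line) and the SD (bar) per site over 2 brain, 3 liver and 3 subcutaneous libraries. Slc2a1, Hk2, Aldoc and Bhlhe40 are lowest in liver, and Aldoa, Pgk1, Ldha, Pfkfb3, Bnip3 and Egln3 step up from brain to liver to subcutaneous.

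Of the 6 members of upper glycolysis, 5 were lower in brain than in subcutaneous tumour cells, 3 were lower and 1 higher in brain than in liver, and 3 were lower in liver than in subcutaneous tumour cells. Aldoa, the main aldolase, which splits the phosphorylated sugar, stood at 289.5 and 276 CPM in brain, 518, 454 and 427 CPM in liver and 1057, 1345 and 1063 CPM in subcutaneous tumour cells. The sites formed 3 separate steps. Brain was 4.09-fold below subcutaneous (log2 fold change -2.03, SE 0.15, adjusted p = 0.000261) and 1.79-fold below liver (log2 fold change -0.84, SE 0.14, adjusted p = 0.0053). Liver was 2.29-fold below subcutaneous (log2 fold change -1.19, SE 0.13, adjusted p = 0.00356). Aldoc, the aldolase typical of brain tissue, did not follow its paralogue, at 44.2 and 37.5 CPM in brain, 16.3, 20.4 and 16.7 CPM in liver and 37.4, 40.3 and 34.2 CPM in subcutaneous tumour cells. It was 2.12-fold higher in brain than in liver (log2 fold change 1.08, SE 0.14, adjusted p = 0.00174), and brain and subcutaneous libraries overlapped. Aldoc is also an astrocyte gene, and in the cells outside the tumour rule it stood at 36.7 and 168 CPM in the brain libraries. Without the cells with macrophage UMIs its log2 fold change of brain against liver was 1.15 (adjusted p = 0.00152). That filter does not select on astrocyte markers, so it says nothing about astrocyte RNA, whose part was not tested.

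Gpi1, the isomerase that follows hexokinase, stood at 282 and 277 CPM in brain, 382, 360.1 and 401 CPM in liver and 467, 608 and 531 CPM in subcutaneous tumour cells. It was lower in brain than at either other site (1.48-fold and 1.92-fold, adjusted p = 0.0115 and 0.0027). The phosphofructokinases catalyse the committed step. Pfkl, the liver-type subunit, had the same order of site means, with 2.01-fold between brain and subcutaneous (log2 fold change -1.01, SE 0.15, adjusted p = 0.00462). Pfkp, the platelet-type subunit, stood at 25.3 and 32.5 CPM in brain, 21.6, 25.8 and 31.6 CPM in liver and 52.6, 95 and 74.9 CPM in subcutaneous tumour cells. Brain and liver overlapped for Pfkp, and the subcutaneous libraries were 2.57-fold above brain (log2 fold change -1.36, SE 0.25, adjusted p = 0.011). They were 2.62-fold above liver (log2 fold change -1.39, SE 0.22, adjusted p = 0.0193). Tpi1, the triosephosphate isomerase, was called against subcutaneous only in brain (log2 fold change -0.60, SE 0.12, adjusted p = 0.0149). Several of these calls rested on single libraries. Gpi1 and Pfkl in brain against liver were lost without brain replicate 1 (adjusted p 0.0896 to 0.108) or 2 (0.0689 to 0.0901). For brain against subcutaneous, Pfkl was lost without brain replicate 1 (adjusted p = 0.0654). Pfkp was lost without brain replicate 1 or 2 (adjusted p 0.0587 to 0.113) and Tpi1 without brain replicate 1 or 2 or subcutaneous replicate 2 or 3 (adjusted p 0.0514 to 0.139). For liver against subcutaneous, Pfkp was lost without liver replicate 1 or 2 or subcutaneous replicate 2 or 3 (adjusted p 0.054 to 0.13) and Aldoc without liver replicate 1 (adjusted p = 0.0567).

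Of the 6 members of lower glycolysis, from glyceraldehyde phosphate to pyruvate, 5 were lower in brain than at each other site and 1 was lower in liver than in subcutaneous tumour cells. Pgk1, which makes the first ATP of the pathway, stood at 279.7 and 316 CPM in brain, 443, 467 and 476 CPM in liver and 690.5, 943 and 804 CPM in subcutaneous tumour cells. The 3 sites did not overlap, with brain 2.73-fold below subcutaneous (log2 fold change -1.45, SE 0.14, adjusted p = 0.000805). Pgam1 (phosphoglycerate mutase) and Eno1 (enolase) were also lower in brain than in subcutaneous tumour cells, 2.25-fold and 2.95-fold (adjusted p = 0.00245 and 0.00444), as was Pkm, the pyruvate kinase, 1.97-fold (adjusted p = 0.0096). Eno1 stood at 427 and 339.5 CPM in brain, 579.7, 769 and 861 CPM in liver and 849, 1366 and 1175 CPM in subcutaneous tumour cells, so that liver and subcutaneous overlapped. Gapdh, often used as a reference gene, was 1728 and 2029.6 CPM in brain, 2209, 2272 and 2249 CPM in liver and 2527, 2715 and 2587 CPM in subcutaneous tumour cells. It too was called lower in brain, by 1.29-fold against liver (log2 fold change -0.37, SE 0.10, adjusted p = 0.030). The difference was 1.39-fold against subcutaneous (log2 fold change -0.48, SE 0.10, adjusted p = 0.0178).

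The member called between liver and subcutaneous tumour cells was Pgk1 (log2 fold change -0.70, SE 0.12, adjusted p = 0.0235). Eno2, the neuronal enolase, stood at 5.86 and 4.0 CPM in brain, 3.89, 3.81 and 3.67 CPM in liver and 3.29, 3.24 and 3.41 CPM in subcutaneous tumour cells. Its 2 brain libraries were above all 6 others in these CPM, which are not scaled by the library factors. With the factors, brain replicate 2 would lie below liver replicates 1 and 2. Eno2 passed no test (adjusted p = 0.368, 0.0762 and 0.385). The 5 brain against liver calls were lost without brain replicate 1 (adjusted p 0.0599 to 0.234). Eno1, Pkm and Pgam1 were also lost without brain replicate 2 (0.0741 to 0.115). Gapdh and Pkm were lost without liver replicate 2 (0.0775 to 0.0823), Gapdh without liver replicate 1 or subcutaneous replicate 3 (0.0641 and 0.0602) and Pkm without liver replicate 3 (0.0641). Against subcutaneous, Gapdh was lost without brain replicate 1 or subcutaneous replicate 2 or 3 (adjusted p 0.0627 to 0.137). Pkm was lost without brain replicate 1 or 2 (adjusted p 0.0613 to 0.104) and Eno1 without brain replicate 2 (adjusted p = 0.0545). The liver against subcutaneous call of Pgk1 was lost in 7 of the 8 fits that left out a library, all but that without subcutaneous replicate 1 (adjusted p 0.0502 to 0.131). Aldoa, Tpi1, Gapdh, Pgk1, Pgam1, Eno1, Pkm, Ldha and Mif have near-identical processed copies in the mouse genome, so their counts are uncertain where reads could be split among copies.

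Among 5 members that set the fate of pyruvate and the flux, 4 were lower and 1 higher in brain than in subcutaneous, 3 lower and 1 higher in brain than in liver, and 2 lower in liver than in subcutaneous tumour cells. Ldha, which makes lactate, stood at 691 and 906 CPM in brain, 1227, 1299.7 and 1359.8 CPM in liver and 1544, 2179 and 1914 CPM in subcutaneous tumour cells, with no overlap between sites. Brain was 2.36-fold below subcutaneous (log2 fold change -1.24, SE 0.17, adjusted p = 0.00351) and 1.75-fold below liver (log2 fold change -0.81, SE 0.16, adjusted p = 0.00995). Slc16a3, the lactate exporter MCT4, was at 46.5 and 60.3 CPM in brain, 63.7, 72.9 and 85.7 CPM in liver and 132, 209 and 177 CPM in subcutaneous tumour cells. Its subcutaneous libraries were 3.23-fold above brain (log2 fold change -1.69, SE 0.21, adjusted p = 0.00251) and 2.16-fold above liver (log2 fold change -1.11, SE 0.18, adjusted p = 0.0202). Brain against liver was not called (adjusted p = 0.0712). Pdk1, a kinase that shuts pyruvate out of the mitochondrial pyruvate dehydrogenase, stood at 32 and 27.6 CPM in brain, 51.7, 47.2 and 44.1 CPM in liver and 68, 78.7 and 67.8 CPM in subcutaneous tumour cells. It was called lower in brain than at both other sites (log2 fold change -0.80 against liver and -1.27 against subcutaneous, adjusted p = 0.00426 and 0.00117).

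Pfkfb3 and Pfkfb4 make and remove the sugar phosphate that activates phosphofructokinase, and they went in opposite directions. Pfkfb3 was at 7.7 and 6.54 CPM in brain, 11.1, 10.8 and 8.53 CPM in liver and 26.1, 33.9 and 27.7 CPM in subcutaneous tumour cells. Subcutaneous tumour cells were 4.14-fold above brain (log2 fold change -2.05, SE 0.19, adjusted p = 0.000676) and 2.67-fold above liver (log2 fold change -1.41, SE 0.16, adjusted p = 0.00394). In the brain libraries, cells outside the tumour rule had 48.4 and 23.3 CPM of Pfkfb3, whose part was not tested. Pfkfb4 was at 4.15 and 3.1 CPM in brain, 2.02, 1.97 and 2.01 CPM in liver and 2.35, 1.81 and 1.85 CPM in subcutaneous tumour cells. It was highest in brain, 1.67-fold above liver (log2 fold change 0.74, SE 0.22, adjusted p = 0.0413) and 1.8-fold above subcutaneous (log2 fold change 0.85, SE 0.22, adjusted p = 0.0323). Liver and subcutaneous overlapped. Both Pfkfb4 calls were close to the threshold. That against liver was lost without brain replicate 1 or 2 or liver replicate 1 or 2 or 3 or subcutaneous replicate 2 or 3 (adjusted p 0.0529 to 0.21). The call against subcutaneous was lost without brain replicate 1 or 2 or liver replicate 1 or 2 or subcutaneous replicate 2 or 3 (adjusted p 0.0531 to 0.177). The cells outside the tumour rule had 24.3 and 25.4 CPM of Pfkfb4 in the brain libraries. Without tumour cells that had macrophage UMIs, the log2 fold change of brain against liver was 0.76 (adjusted p = 0.0565). The brain against liver call of Pfkfb3 was lost without brain replicate 1 or 2 or liver replicate 1 or 2 or subcutaneous replicate 3 (adjusted p 0.0579 to 0.219) and that of Ldha without brain replicate 1 (adjusted p = 0.105). Slc16a3 was lost in liver against subcutaneous without liver replicate 1 or 2 or subcutaneous replicate 2 or 3 (adjusted p 0.0608 to 0.13).

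**Figure D3:**
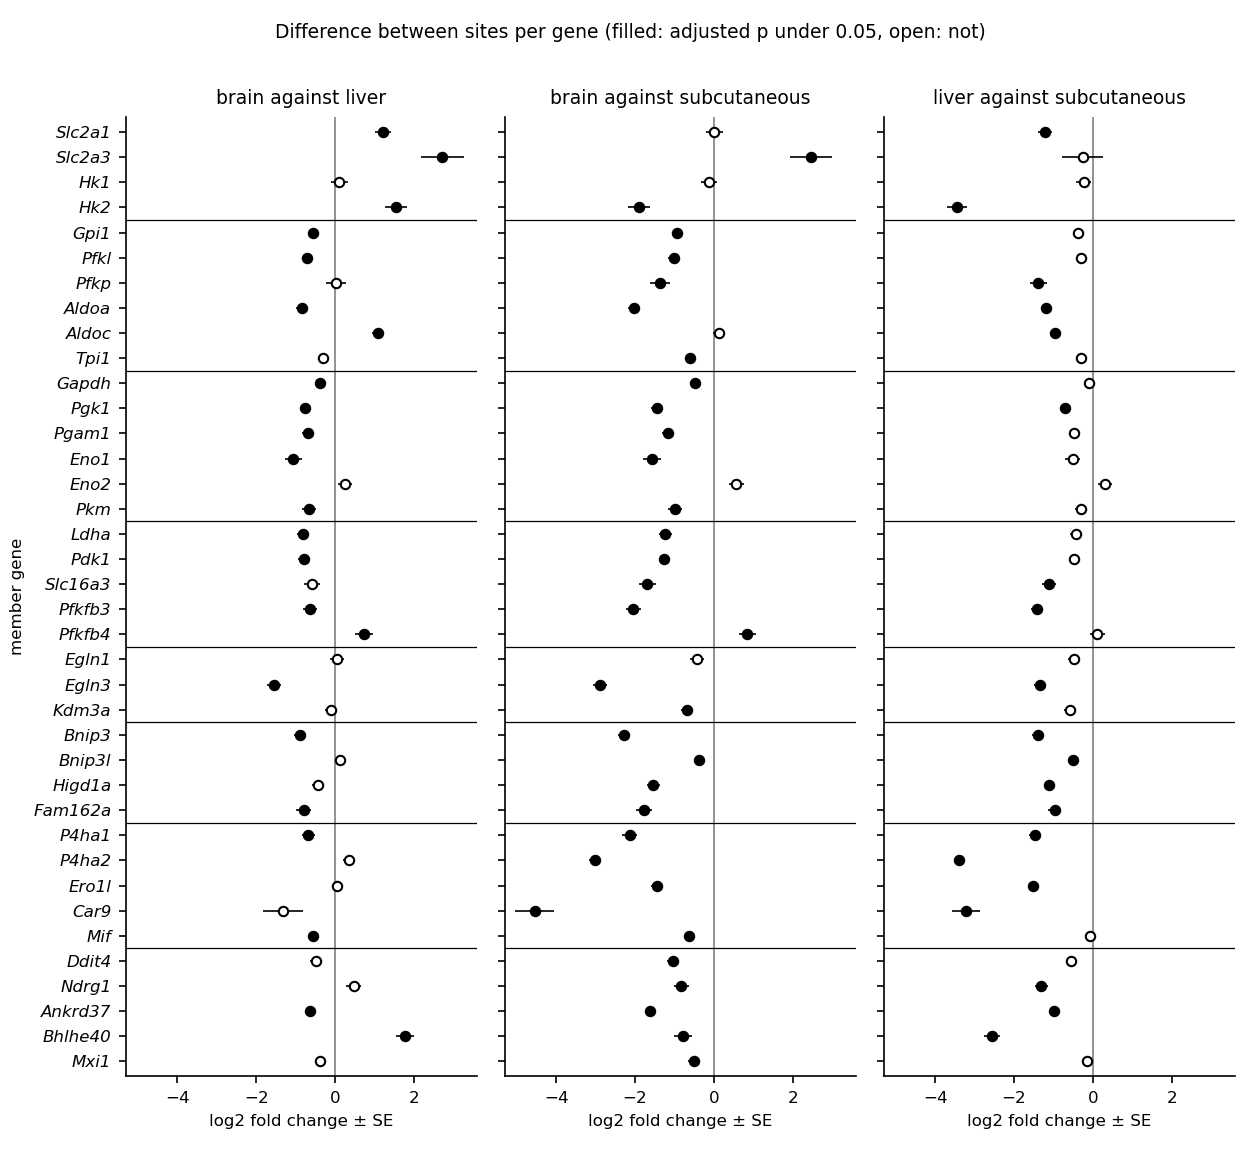
Log2 fold change ± SE of each member for brain against liver, brain against subcutaneous and liver against subcutaneous (x axes, first site over second), filled where the adjusted p is under 0.05. Filled points to the left of 0 number 17, 31 and 20, and those to the right 6, 2 and 0.

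The oxygen-dependent enzymes include the HIF prolyl hydroxylases, which are themselves HIF targets and form a feedback. Egln3 (PHD3) stood at 10.2 and 9.95 CPM in brain, 29.3, 25.2 and 26.9 CPM in liver and 59.7, 88.5 and 75.4 CPM in subcutaneous tumour cells. Each site was set apart from the next. Brain was 7.42-fold below subcutaneous (log2 fold change -2.89, SE 0.18, adjusted p = 0.000165) and 2.92-fold below liver (log2 fold change -1.54, SE 0.17, adjusted p = 0.00114). Liver was 2.55-fold below subcutaneous (log2 fold change -1.35, SE 0.14, adjusted p = 0.00356). All 3 calls held in each of the 8 fits that left out a library. Egln1 (PHD2), the main oxygen sensor, was at 15.7 and 14.1 CPM in brain, 15.9, 11.7 and 12 CPM in liver and 23.6, 18.3 and 18 CPM in subcutaneous tumour cells. It passed no test (adjusted p = 0.859, 0.149 and 0.159). Kdm3a, a histone demethylase that needs oxygen, was called lower in brain than in subcutaneous tumour cells alone (log2 fold change -0.69, SE 0.16, adjusted p = 0.023). The call was lost without brain replicate 2 or subcutaneous replicate 2 or 3 (adjusted p 0.0629 to 0.143).

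All 4 mitochondrial members were lower in brain and in liver than in subcutaneous tumour cells, and 2 were lower in brain than in liver. Bnip3, a receptor that marks mitochondria for removal, stood at 81.2 and 85.6 CPM in brain, 160.0, 125 and 139.7 CPM in liver and 362, 475 and 377 CPM in subcutaneous tumour cells. The sites formed 3 steps without overlap. Subcutaneous tumour cells were 4.86-fold above brain (log2 fold change -2.28, SE 0.16, adjusted p = 0.000228) and 2.64-fold above liver (log2 fold change -1.40, SE 0.13, adjusted p = 0.00203). Liver was 1.84-fold above brain (log2 fold change -0.88, SE 0.15, adjusted p = 0.00556). Its relative Bnip3l (Nix), with the same task, spanned a narrower range, at 169 and 172 CPM in brain, 149, 134 and 149 CPM in liver and 223, 234 and 204 CPM in subcutaneous tumour cells. For Bnip3l the log2 fold change was -0.50 for liver against subcutaneous and -0.38 for brain against subcutaneous (adjusted p = 0.0243 and 0.0331). Higd1a, a small inner membrane protein tied to the respiratory chain, was at 155 and 166 CPM in brain, 227, 199 and 175 CPM in liver and 523, 479 and 391 CPM in subcutaneous tumour cells. Fam162a, a mitochondrial protein linked to cell death in hypoxia, was at 100 and 145 CPM in brain, 223, 194 and 174 CPM in liver and 469, 434 and 351 CPM in subcutaneous tumour cells. Both were highest in subcutaneous tumour cells, 2.9-fold and 3.41-fold above brain (adjusted p = 0.00131 and 0.00176). They were 2.14-fold and 1.96-fold above liver (adjusted p = 0.00842 and 0.0266). Lost calls were Bnip3 in brain against liver (without brain replicate 1, adjusted p = 0.0583) and Fam162a there (without brain replicate 1 or liver replicate 1 or 2, adjusted p 0.055 to 0.146). Bnip3l was lost against subcutaneous in brain without brain replicate 1 or 2 or liver replicate 2 or subcutaneous replicate 2 or 3 (adjusted p 0.0543 to 0.175), and in liver without liver replicate 1 or 2 or subcutaneous replicate 2 (adjusted p 0.0731 to 0.152). The brain call of Bnip3l was also lost without cells that had macrophage UMIs (adjusted p = 0.0709). Higd1a was lost in liver without liver replicate 2 (adjusted p = 0.0698), and Fam162a without liver replicate 1 or 2 or 3 or subcutaneous replicate 2 (adjusted p 0.0654 to 0.143).

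All 5 members of secretion, matrix and pH control were lower in brain than in subcutaneous tumour cells, 4 were lower in liver than in subcutaneous and 2 were lower in brain than in liver. P4ha2, a catalytic subunit of the collagen prolyl hydroxylase, stood at 2.4 and 2.66 CPM in brain, 1.8, 1.71 and 1.96 CPM in liver and 19, 22.5 and 20.3 CPM in subcutaneous tumour cells. The lowest subcutaneous library was far above the highest of the other 5. Liver was 10.4-fold (log2 fold change -3.38, SE 0.13, adjusted p = 9.73e-06) and brain 8.12-fold below subcutaneous (log2 fold change -3.02, SE 0.15, adjusted p = 0.000116). Brain against liver was not called (adjusted p = 0.113). P4ha1, the alternative catalytic subunit, was at 12.5 and 14.8 CPM in brain, 20.3, 21 and 19 CPM in liver and 48.2, 71.7 and 60.2 CPM in subcutaneous tumour cells. It too was highest in subcutaneous tumour cells, 4.4-fold above brain (log2 fold change -2.14, SE 0.18, adjusted p = 0.000465) and 2.76-fold above liver (log2 fold change -1.47, SE 0.15, adjusted p = 0.00299). Unlike P4ha2 it was called lower in brain than in liver (log2 fold change -0.67, SE 0.17, adjusted p = 0.0251). That call was lost without brain replicate 1 or 2 or liver replicate 1 or 2 (adjusted p 0.0665 to 0.191). Cells outside the tumour rule had 68.4 and 69.2 CPM of P4ha1 in the brain libraries, whose part was not tested.

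Car9, the cell-surface carbonic anhydrase that controls pH in hypoxic tumours, stood at 0.0922 and 0.362 CPM in brain, 0.445, 0.878 and 0.432 CPM in liver and 6.16, 5.82 and 5.86 CPM in subcutaneous tumour cells. The 3 subcutaneous libraries were close to each other and above all others. Brain was 23.4-fold (log2 fold change -4.55, SE 0.49, adjusted p = 0.00138) and liver 9.34-fold below them (log2 fold change -3.22, SE 0.36, adjusted p = 0.00403). The brain values rest on 2 and 14 UMIs, and the exact Poisson 95% interval, which covers counting error only, ran from 0.0112 to 0.333 CPM in brain replicate 1. Cells outside the tumour rule had 2.98 and 6.86 CPM of Car9 in the brain libraries. Ero1l, an oxidase that forms disulfide bonds in the endoplasmic reticulum, was at 11.2 and 9.61 CPM in brain, 9.66, 8.76 and 9.15 CPM in liver and 30.4, 30 and 24.8 CPM in subcutaneous tumour cells. Brain and liver overlapped, and subcutaneous was 2.74-fold and 2.86-fold above them (adjusted p = 0.000805 and 0.000707). Mif, a cytokine that hypoxia can also induce, was at 1376 and 1454 CPM in brain, 2024, 1986 and 1778 CPM in liver and 2366, 2216 and 1954 CPM in subcutaneous tumour cells. It was lower in brain than in liver (log2 fold change -0.56, adjusted p = 0.0115) and subcutaneous (log2 fold change -0.62, adjusted p = 0.012). Both calls were lost without brain replicate 1 or 2 (adjusted p 0.0509 to 0.0831 against liver and adjusted p 0.0544 to 0.0891 against subcutaneous). Liver and subcutaneous overlapped.

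Regulators of growth and transcription were higher in subcutaneous than in brain tumour cells in all 5 cases, and 3 of the 5 were lower in liver. Bhlhe40, a repressor that also acts in the circadian clock, stood at 14.2 and 8.86 CPM in brain, 3.2, 2.61 and 3.45 CPM in liver and 22.7, 19.8 and 16.6 CPM in subcutaneous tumour cells. Liver was lowest without overlap, 5.89-fold below subcutaneous (log2 fold change -2.56, SE 0.21, adjusted p = 0.000707) and 3.43-fold below brain (log2 fold change 1.78, SE 0.22, adjusted p = 0.0016). In cells outside the tumour rule, Bhlhe40 was at 101.2 and 138 CPM in the brain libraries. Without tumour cells that had macrophage UMIs, its log2 fold change was 1.92 for brain against liver (adjusted p = 0.00152) and -0.66, no longer called, for brain against subcutaneous (adjusted p = 0.111). Ndrg1, a stress-induced gene linked to differentiation, was at 70.4 and 67.7 CPM in brain, 38.1, 40.9 and 58.9 CPM in liver and 102, 143 and 121 CPM in subcutaneous tumour cells. It was lowest in liver, 2.47-fold below subcutaneous (log2 fold change -1.30, SE 0.17, adjusted p = 0.00932). Ankrd37, an ankyrin repeat protein and HIF target, was at 29.4 and 32.2 CPM in brain, 43.2, 45.8 and 42.5 CPM in liver and 95.9, 103 and 83.2 CPM in subcutaneous tumour cells. Its levels formed 3 separate steps from brain to liver to subcutaneous. The difference was 3.05-fold between the ends (log2 fold change -1.61, SE 0.13, adjusted p = 0.000318) and 1.98-fold between liver and subcutaneous (log2 fold change -0.99, SE 0.11, adjusted p = 0.00356).

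Ddit4 (REDD1), which restrains the growth kinase complex mTORC1, was at 93.7 and 84.6 CPM in brain, 112, 134 and 98.4 CPM in liver and 161, 205 and 181 CPM in subcutaneous tumour cells. It was 2.05-fold below subcutaneous in brain (log2 fold change -1.03, SE 0.16, adjusted p = 0.00596), and not called for liver against subcutaneous (adjusted p = 0.0734). Mxi1, an antagonist of Myc, was lower in brain than in subcutaneous tumour cells (log2 fold change -0.51, SE 0.14, adjusted p = 0.0431) and passed no other test. The brain against subcutaneous call of Mxi1 was lost in 7 of the 8 fits that left out a library, all but that without subcutaneous replicate 1 (adjusted p 0.0621 to 0.215). Bhlhe40 was lost there without brain replicate 2 or liver replicate 1 or 2 or 3 or subcutaneous replicate 2 or 3 (adjusted p 0.0609 to 0.234, from 0.0432 with all libraries). Ndrg1 was lost without brain replicate 1 or 2 or subcutaneous replicate 2 or 3 (adjusted p 0.0769 to 0.149) and Ddit4 without brain replicate 1 or 2 (adjusted p 0.0543 to 0.0606). Ankrd37 was lost in brain against liver without brain replicate 1 (adjusted p = 0.082), and Ndrg1 in liver against subcutaneous without liver replicate 1 or 2 (adjusted p 0.0526 to 0.0886).

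Counted over all members, the calls that held in each of the 8 fits without 1 library were 7 of 23 for brain against liver, 18 of 33 for brain against subcutaneous and 11 of 20 for liver against subcutaneous. The 7 were Slc2a1, Hk2, Aldoa, Aldoc, Pdk1, Egln3 and Bhlhe40. The 11 were Hk2, Aldoa, Pfkfb3, Bnip3, Ankrd37, Egln3, P4ha1, P4ha2, Car9, Ero1l and Bhlhe40. The share of calls over all genes that held in all 8 fits was not computed. Whether calls of members held more or less often than others is therefore not known. The number of members called for brain against liver was 7 without brain replicate 1 and 14 without brain replicate 2. For brain against subcutaneous it was 21 and 20. For liver against subcutaneous it was 12 without liver replicate 1, 12 without liver replicate 2 and 30 without subcutaneous replicate 1. Over all genes, the calls for liver against subcutaneous went from 394 to 57, 33 and 1024 in the same fits. Calls over all genes also fell in the fits without a brain library. The direction of these changes was thus shared with all genes. Their relative size was not the same, as the numbers for liver against subcutaneous show.

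Other settings ended calls too. With all kept cells in place of tumour cells, the calls for liver against subcutaneous fell to 12, without Slc2a1, Hk2, Pfkp, Pgk1, Slc16a3, Pfkfb3, Bnip3l and Fam162a (adjusted p 0.0645 to 0.0753). In that setting Hk2, Bnip3l, Bhlhe40 and Mxi1 were lost for brain against subcutaneous (adjusted p 0.0521 to 0.861), and Hk2 turned to 0.80 above subcutaneous on the log2 scale. Pfkfb3 and P4ha1 were lost there for brain against liver (adjusted p 0.578 to 0.999). A fit of brain and subcutaneous libraries alone lost Slc2a3, Tpi1, Gapdh, Pfkfb4, Bnip3l, Kdm3a, Bhlhe40 and Mxi1 (adjusted p 0.0559 to 0.106), which left 0 members higher in brain. Without cells that had macrophage UMIs, brain against subcutaneous lost Bnip3l, Bhlhe40 and Mxi1 (adjusted p 0.055 to 0.111). With thinned cells, Pfkfb3 and P4ha1 were lost for brain against liver (adjusted p 0.0595 to 0.141) and Bnip3l for brain against subcutaneous (0.0549). Pfkfb3 and Bhlhe40 were also lost with the tumour rule at 0.1% (Pfkfb3 in brain against liver at 0.0548, Bhlhe40 in brain against subcutaneous at an adjusted p of 0.0577), Pfkfb4 for brain against liver with the rule at 0.4% or no filter on low counts (0.0562 and 0.0543), and Mxi1 for brain against subcutaneous with other size factors (0.0512).

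Other genes of the pathway were read from lists chosen by name. Of 13 tested genes of the HIF machinery (the factors, their degradation and their cofactors), 1 was higher and 0 lower in brain than in liver, against 13.2% and 8.56% of all genes. In brain against subcutaneous, 2 were lower and 0 higher, and 1 was lower and 0 higher in liver than in subcutaneous tumour cells. Over all genes, 6.13% were lower in brain and 1.9% lower in liver than in subcutaneous tumour cells. With so few calls these counts are not read as a result about the list. Hif1a, the oxygen-regulated subunit of HIF-1, named here with its values known, stood at 44.9 and 33.2 CPM in brain, 40.6, 38 and 39.3 CPM in liver and 43.2, 42.7 and 43.8 CPM in subcutaneous tumour cells. The brain libraries spanned those of both other sites, and Hif1a passed no test (adjusted p = 0.505, 0.446 and 0.938). Cited2, which competes with HIF for its coactivators and was also named with its values known, was lower than in subcutaneous tumour cells in brain and in liver (log2 fold change -1.01 and -0.84, adjusted p = 0.00915 and 0.0291). The other 2 calls, named after their values were seen, were Siah2, a ubiquitin ligase of the prolyl hydroxylases, lower in brain than in subcutaneous (log2 fold change -0.79, SE 0.21, adjusted p = 0.0367), and Epas1. Epas1 (HIF-2 alpha) was higher in brain than in liver (log2 fold change 4.16, SE 1.09, adjusted p = 0.0263) at no more than 2.03 CPM. Endothelial markers, whose cells make much Epas1, summed to 25.8 and 8.68 CPM in brain, 10.1, 8.55 and 10 CPM in liver and 10.2, 9.12 and 9.17 CPM in subcutaneous libraries, and their part was not tested. None of these 4 calls held in all 8 fits without a library. Epas1 was lost without brain replicate 1 or 2 or liver replicate 1 or 2 or 3 (adjusted p 0.0622 to 0.158). Cited2 was lost in brain without brain replicate 1 or 2 (adjusted p 0.068 to 0.0948) and in liver in all fits but that without subcutaneous replicate 1 (adjusted p 0.0519 to 0.173). Siah2 was lost without brain replicate 1 or 2 or liver replicate 1 or 3 or subcutaneous replicate 2 or 3 (adjusted p 0.0541 to 0.237).

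Other genes of glycolysis and pyruvate use (22 tested of 27 listed) had 4 genes higher and 4 lower in brain than in liver, against 13.2% and 8.56% of all genes. Against subcutaneous, 4 were higher and 2 lower in brain, and 1 higher and 0 lower in liver than in subcutaneous tumour cells. The shares over all genes were 8.94% and 6.13% in brain and 0.933% and 1.9% in liver. With so few calls, nothing is read about the list from these counts or from those of the next list. Gpd1, which diverts carbon to glycerol phosphate, was lower in brain than in liver (log2 fold change -0.76, SE 0.14, adjusted p = 0.00765). In the pentose phosphate pathway (7 tested), 2 genes were higher and 1 lower in brain against each other site, and none was called between liver and subcutaneous tumour cells at an adjusted p under 0.05 (edgeR). Pgls, an enzyme of its oxidative arm, stood at 557 and 618 CPM in brain, 251, 233 and 263 CPM in liver and 319, 219.5 and 224 CPM in subcutaneous tumour cells. Brain was 2.18-fold above liver (log2 fold change 1.13, SE 0.16, adjusted p = 0.00228) and 2.31-fold above subcutaneous (log2 fold change 1.21, SE 0.16, adjusted p = 0.00278). Rpia, of its other arm, was 1.43-fold higher in brain than in subcutaneous (adjusted p = 0.0405). Gpd1 was lost against liver without brain replicate 1 or 2 (adjusted p 0.0561 to 0.0823). Rpia was lost against subcutaneous without brain replicate 1 or 2 or liver replicate 1 or 2 or subcutaneous replicate 2 or 3 (adjusted p 0.0555 to 0.201).

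Of 37 other known HIF targets, 16 were lower and 0 higher in liver than in subcutaneous, 15 were lower and 2 higher in brain than in subcutaneous, and 4 were lower and 10 higher in brain than in liver tumour cells. In the same order, the shares over all genes were 1.9% and 0.933%, 6.13% and 8.94%, and 8.56% and 13.2%. Ak4, a mitochondrial adenylate kinase, followed the common order at 5.67 and 4.55 CPM in brain, 12.2, 12.4 and 8.27 CPM in liver and 20.2, 32.7 and 28.8 CPM in subcutaneous tumour cells. Brain was 5.37-fold below subcutaneous (log2 fold change -2.43, SE 0.27, adjusted p = 0.00162). Vegfa, the angiogenic growth factor, was at 9.87 and 4.86 CPM in brain, 12.7, 8.3 and 6.37 CPM in liver and 35.7, 24.7 and 22.2 CPM in subcutaneous tumour cells. It was 3.81-fold below subcutaneous in brain (log2 fold change -1.93, SE 0.40, adjusted p = 0.0175) and not called in liver (log2 fold change -1.47, adjusted p = 0.0545). Plod1, a collagen lysyl hydroxylase, and Pgm2, a phosphoglucomutase, were also lower in brain than in subcutaneous (log2 fold change -1.58 and -1.37, adjusted p = 0.00127 and 0.00888). The metallothioneins Mt1 and Mt2, which bind metals, gave the largest differences of liver against subcutaneous among the called genes of these lists with a mean of at least 10 CPM (log2 fold change -1.73 and -1.76, adjusted p = 0.00179 and 0.00403). Next among called genes came Ak4 (-1.20, adjusted p = 0.0289) and the nuclear receptor Rora (-1.06, adjusted p = 0.0119). Higher in brain than in liver were Cxcr4, a chemokine receptor (0.79), Rora (0.71) and Hmox1, a heme oxygenase (0.70), with adjusted p = 0.0064, 0.0154 and 0.0101. In cells outside the tumour rule, the brain libraries had 35.6 and 25.4 CPM of Cxcr4, 8.95 and 12.3 CPM of Rora and 116 and 111 CPM of Hmox1. Lower in brain than in liver were Ak4 (-1.23), Pgm2 (-0.87) and Plod1 (-0.87), with adjusted p = 0.0125, 0.0296 and 0.00755.

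Among these targets, the brain against liver calls of Ak4, Pgm2, Plod1 and Rora were lost without brain replicate 1. Those of Ak4, Pgm2, Hmox1 and Rora were lost without brain replicate 2. Those of Pgm2, Hmox1 and Rora were lost without liver replicate 2, and that of Pgm2 also without liver replicate 3 or subcutaneous replicate 3, with adjusted p of at most 0.186. Against subcutaneous in brain, Pgm2 was lost without brain replicate 1 or 2 (adjusted p 0.070 to 0.0924) and Vegfa without brain replicate 2 (adjusted p = 0.0953). In liver, Ak4 was lost in 7 of the 8 fits, all but that without subcutaneous replicate 1 (adjusted p 0.0558 to 0.13), and Rora without liver replicate 1 or 2 (adjusted p 0.0613 to 0.0692).

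The summed counts were then resolved into single cells. Tumour cells were reduced at random to 3000 UMIs each, and the 48 to 180 cells per library with fewer UMIs were dropped. The UMIs of the hypoxia members without Mif, which has the most UMIs among them, were added up per cell. The median was 2 and 2 UMIs in the brain libraries, 3, 3 and 3 in liver and 4, 5 and 4 in subcutaneous libraries. In the same order, the mean was 2.69 and 2.8, 3.57, 3.17 and 3.13, and 7.15, 7.88 and 6.66. The 90th percentile was 5 and 5 in brain, 7, 6 and 6 in liver and 18, 19 and 17 in subcutaneous libraries. The distance between subcutaneous and other libraries was thus wider at the 90th percentile than at the median. Cells with 10 or more such UMIs made up 2.48 and 2.47% of tumour cells in brain, 4.59, 2.9 and 2.56% in liver and 22.7, 28.7 and 22% in the subcutaneous libraries. They held 64, 67.3 and 60.5% of all UMIs of these 16 genes in the subcutaneous libraries, against 13.9 and 14.4% in brain and 16.8, 12.1 and 10.9% in liver.

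The mark of 10 UMIs was set with the distribution in view and cuts a continuous range, not a cell type. Cells with exactly 9 or exactly 10 such UMIs made up 2.54% and 1.86% of subcutaneous replicate 1. In the cells below it, the mean was 2.38 and 2.46 UMIs in brain, 3.11, 2.87 and 2.86 in liver and 3.32, 3.61 and 3.38 in subcutaneous libraries. Values capped at 9 must lie closer together. Without thinning, cells with 10 or more UMIs were 25.4 and 28.4% in brain, 57.9, 50.1 and 41.1% in liver and 59.8, 67.5 and 63.8% in subcutaneous libraries. The median depth was then 7972 to 10542 UMIs per cell. In cells outside the tumour rule, thinned to the same depth, the share was 2.56 and 4.78% in brain, 2.0% and 1.60% in liver replicates 1 and 2, and 6.99, 5.83 and 9.09% in subcutaneous libraries. Liver replicate 3 had 0 of 68 such cells, which allows a share of up to 4.41%. In brain replicate 1 the share was nearly the same in tumour cells and in the other cells (2.48 and 2.56%). In brain replicate 2 it was lower in tumour cells (2.47 against 4.78%), with only 209 other cells. The liver shares of tumour cells were above the values measured in the other cells, which rest on only 50, 125 and 68 cells. The other cells had a median depth of 3585 to 5008 UMIs before thinning. Of these other cells, 18.2% and 21.2% held an eGFP UMI in brain, 56% to 75.4% in liver and 32.2% to 81.5% in subcutaneous libraries, so that they include tumour cells below the rule or carry tumour RNA, which cannot be told apart. The part of background RNA in the brain and liver shares was not tested. Thinned tumour cells with 10 or more such UMIs held a mean of 63.3 and 67.4 UMIs of the glycolysis members in brain. The cells below 10 held 17 and 18.5. In liver the means were 46.9, 55.4 and 51.8 against 24.6, 26.1 and 26.4. The subcutaneous shares of tumour cells were above all shares of the other cells.

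**Figure D4:**
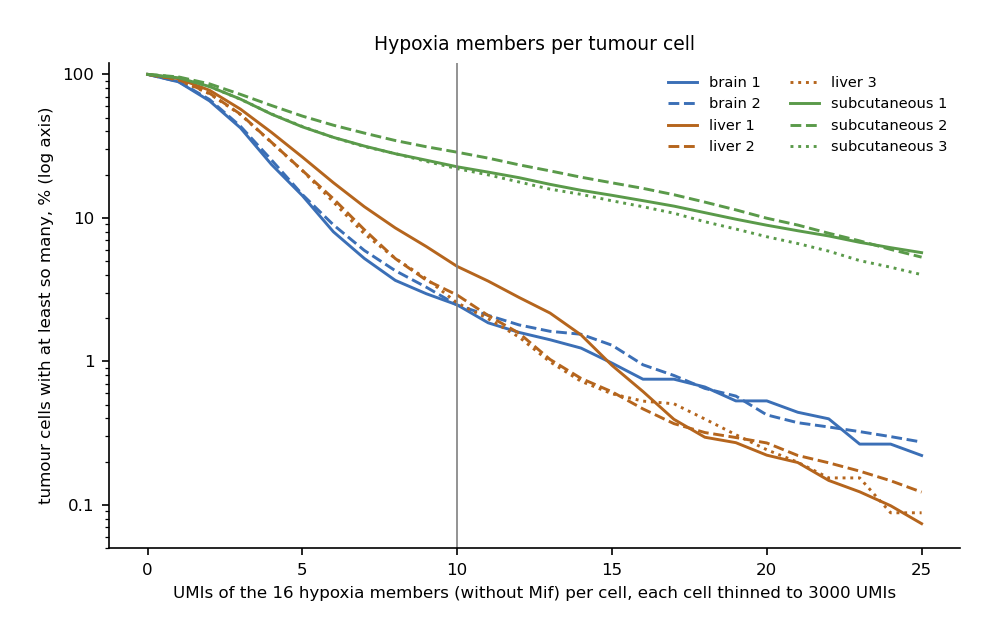
Share of tumour cells (y, percent, log axis) with at least the number of UMIs on the x axis, summed over 16 hypoxia members after each cell was thinned to 3000 UMIs, 1 line per library, drawn up to 25 UMIs. At 10 UMIs (grey line) the subcutaneous lines stand at 22% to 28.7% and the brain and liver lines at 2.47% to 4.59%.

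Glycolysis members were then read in cells ranked by all 17 hypoxia members, a ranking that did not use them. In the highest 10% of the cells of each library, the 21 glycolysis members summed to 12842 and 14119.7 CPM in brain, 13822, 14387 and 13565 in liver and 27045, 29548 and 29477 in subcutaneous libraries. In the other cells they summed to 5281 and 5739, to 7962, 8387 and 8508, and to 9159, 12946 and 11031. The ratio was 2.43 and 2.46 in brain, 1.74, 1.72 and 1.59 in liver and 2.95, 2.28 and 2.67 in subcutaneous libraries. All 8 libraries therefore had higher glycolysis members in the cells with more hypoxia members, and the liver libraries had the 3 lowest ratios. Over all genes with enough counts (7493 to 8004 per library), the median log2 ratio of the same cells was -0.14 to -0.05. Log2 ratios of single genes, here and below, were computed after 1 CPM was added to both sides. That shrinks the ratios of genes at low levels, so these do not rank genes or sites exactly. These are descriptions within libraries, with no test, since cells of 1 library are not replicates.

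**Figure D5:**
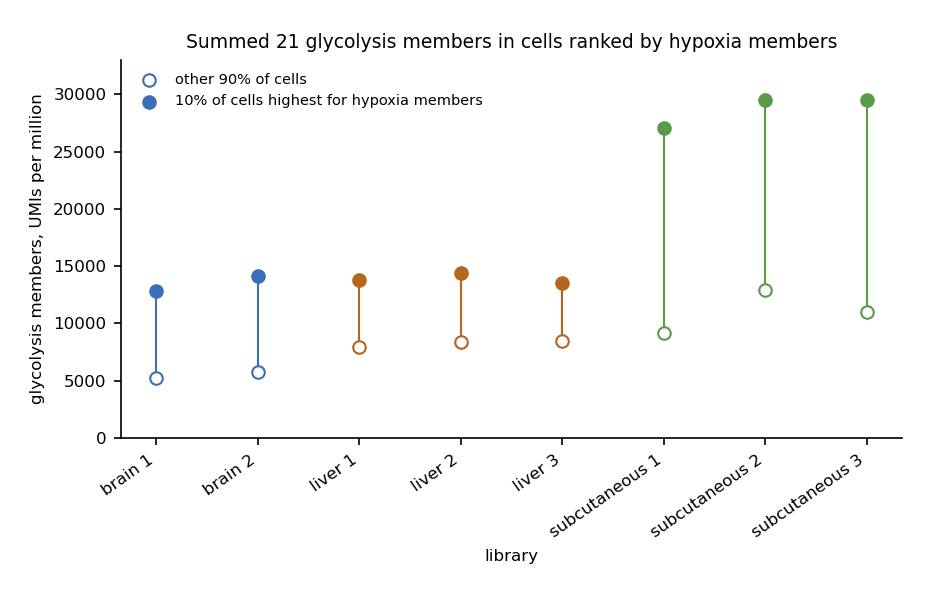
Summed level of the 21 glycolysis members (y, CPM, from 0) in the 10% of tumour cells highest for hypoxia members (filled) and in the other 90% (open), per library (x). The filled point is above the open one in all 8 libraries, and the subcutaneous filled points lie between 27045 and 29548.

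By gene, 17 of the 21 glycolysis members were higher in those cells in all 8 libraries. Hk2, which is among them, stood at only 1.65, 0.819 and 2.2 CPM in those cells of the liver libraries. Its ratios there rest on very few UMIs. Among the other genes with enough counts, 31.1% to 42.4% were higher in those cells in a given library. The 21 members were not held to that limit on counts. The share of genes higher in all 8 libraries was not computed. Aldoa had a log2 ratio of 2.66 and 2.95 in brain, 1.66, 1.81 and 1.57 in liver and 2.26, 1.8 and 2.13 in subcutaneous libraries, the highest brain mean among the 21. Hk2 reached 3.05, 2.59 and 3.46 in the subcutaneous libraries, and Pfkp 2.57, 2.05 and 2.29. Aldoc, which was low in liver as a whole, also had its smallest ratios there, 0.87, 1.06 and 0.58, against 1.37 and 1.81 in brain and 2.5, 2.1 and 2.33 in subcutaneous libraries. Pfkfb3 was 2.32 and 2.27 in brain, 1.53, 1.7 and 1.61 in liver and 2.58, 2.09 and 2.53 in subcutaneous libraries. For Gapdh the log2 ratio ran from 0.36 to 1.13 over the 8 libraries. The 4 members that were not higher in every library were Slc2a3, Eno2, Pfkfb4 and Hk1, which were higher in 4, 4, 5 and 7 of the 8 libraries. Slc2a3, Eno2 and Pfkfb4 are also the members whose summed levels, in CPM without the library factors, were higher in both brain libraries than in all others. For Eno2 that would not hold with the factors. The low counts of all these members make single ratios uncertain.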

How the data were processed

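The members and all gene lists were chosen with earlier results of these data known. The authors deposited UMI counts per gene and cell for each of 8 libraries, made with Cell Ranger (matrix format 3.0.0 per the file headers) on mm10, per the submitters' processing notes. Cells needed 500 or more detected genes and no more than 10% of UMIs from mitochondrial genes. Tumour cells were those with at least 0.2% of UMIs from eGFP and Mycl, and their counts were summed per library (21689091 to 62047017 UMIs). No doublet caller was run; cells with 2 or more macrophage UMIs were left out as an alternative. edgeR 4.0.16 (R 4.3.3; TMM factors, filterByExpr, robust quasi-likelihood test, 1 model over all 3 sites with 5 residual degrees of freedom) tested 13931 genes, with Benjamini-Hochberg adjustment and a threshold of 0.05. The biological coefficient of variation was 17.9%, and the genes not tested held 0.0133% of UMIs. The test was checked on simulated counts. All 38 members are named; from the other pathway lists, up to 4 genes per direction and comparison with the largest change among those called with a mean of at least 10 CPM were named. A second Ensembl gene under the symbol Aldoa was not tested. Alternatives covered size factors, DESeq2 1.42.0, filters on genes and cells, the tumour rule, thinning to 3000 UMIs, the sites in the fit, a replicate block and each library left out. Single-cell values were computed with Python 3.11.15. Intervals and limits from counts cover counting error only.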

Additional observations from a re-analysis of the deposited data

How the results depend on the processing

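The number of members called moved by more than 1.5 times outside the leave-one-out fits in 1 case: with all kept cells in place of tumour cells, 12 members in place of 20 were called for liver against subcutaneous. With all kept cells, the log2 fold change of Pfkfb3 for brain against liver turned to 0.000663, that of Hk2 for brain against subcutaneous to 0.80 and that of Bhlhe40 for brain against subcutaneous to 0.0932. Leaving out 1 library at a time gave 7 to 28 members for brain against liver, 20 to 33 for brain against subcutaneous and 12 to 30 for liver against subcutaneous; where 1 brain library was left, it was assumed to vary like the other sites. Over all genes, the calls ran from 1112 to 4557 (3032 with all libraries), from 383 to 4754 (2099) and from 33 to 1024 (394) in the same order. For liver against subcutaneous, DESeq2 called 1056 genes and all kept cells gave 82; for brain against subcutaneous, a fit of those sites alone called 728. The replicate block gave 26, 32 and 20 members and 2482, 1378 and 229 genes. It ended the calls of Pfkfb4 in brain against each other site and of Mxi1 in brain against subcutaneous (adjusted p 0.0598 to 0.0848). Libraries with the same number correlated from -0.127 to 0.25 in their deviations from the site means. Those with different numbers correlated from -0.302 to 0.303. With so few libraries per site these deviations depend on each other, so the correlations cannot decide whether the numbers mark pairs. Of 114 results (38 members in 3 comparisons), 54 kept their side of the threshold under every alternative. Over 2166 pairs of a result and an alternative, 1962 kept it, 157 lost the call, 44 gained one and 3 turned. A change of direction was counted only where the main fit or the alternative called the result. Sign changes of results called in neither are not counted. The ratio of glycolysis members between cells high and low for hypoxia members was 2.06 to 2.46 under the alternatives, against 2.23; 1 of them, a ranking without Mif, was chosen after seeing the data. Members at under 1 CPM in a site (Hk2, Slc2a3, Car9) are limited by their few UMIs.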
